A study of Homo sapiens with 8 samples.

Results

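The genes described here encode the kinases that carry a TNFα or Toll receptor signal to NFκB, with their scaffold and adaptor partners. They were chosen by name, as the probesets of an Affymetrix Human Gene 1.0 ST array that the platform annotation assigned to IKBKB, CHUK, IKBKG, IKBKE, TBK1, MAP3K7, TAB1, TAB2, TAB3 or IRAK1. Of the 10 listed genes, 9 had a probeset with a single symbol, and each of the 9 had 1 such probeset, among 18417 genes and 33297 probesets in all. The only probeset naming TAB1 also carries the symbol LOC100506472, so it is described apart and is in none of the counts.

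DU145, an established human prostate cancer cell line, was profiled in 4 groups of 2 arrays that the labels call biological replicates. All cells had been in serum-free medium since the day before treatment. Mock cells were untreated. FGF19 cells received 50 ng/ml FGF19, a ligand of the receptor FGFR4, together with 100 µg/ml heparin, and were left for 100 min. TNFα cells received 50 ng/ml TNFα, an inflammatory cytokine, for 90 min, and FGF19 + TNFα cells received the same FGF19 and heparin 10 min ahead of the same TNFα, which then stayed on for 90 min. The published methods give lower doses of heparin and TNFα than these labels. Heparin is named for both groups with FGF19 and for neither of the others, so FGF19 and heparin cannot be told apart, and "with FGF19" below stands for the pair. The study set these groups side by side to see how an FGF19 signal alters the response to TNFα.

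In the canonical pathway, receptor complexes assemble ubiquitin chains that recruit the kinase TAK1 (MAP3K7) through its ubiquitin-binding partners TAB2 and TAB3, and the IKK complex through its scaffold NEMO (IKBKG). TAK1 phosphorylates the IKK kinases IKKα (CHUK) and IKKβ (IKBKB), and IKKβ then marks the inhibitor IκBα for degradation, which frees NFκB. IRAK1 relays Toll-like and IL1 receptor signals to the same complexes, while TBK1 and IKKε (IKBKE) are related kinases best known for activating interferon regulatory factors, and IKBKE is itself a recognized NFκB target gene.

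The promoters of the 3 members whose nearest patterns are named further on, IKBKE, IRAK1 and TAB3, and of a pair with an ETS-type match close to the start, are given as the stretches just before the annotated transcript start. They come from RefSeq on GRCh38.p14, read 5′ to 3′ on the strand of the gene, and 9 of the 10 listed genes, all but IKBKB, were matched. Capitals mark the match named for each gene. The first stretch is that of IKBKE at chr1:206470226-206470475 on the plus strand, with no capitals because it held none of the motifs searched.
IKBKE: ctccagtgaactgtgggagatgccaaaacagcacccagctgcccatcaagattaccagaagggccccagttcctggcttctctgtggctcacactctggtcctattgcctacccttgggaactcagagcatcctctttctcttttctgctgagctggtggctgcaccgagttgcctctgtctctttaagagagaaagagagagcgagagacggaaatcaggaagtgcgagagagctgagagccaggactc
The IRAK1 stretch lies at chrX:154019903-154020022 on the minus strand, with a κB-type match in capitals.
IRAK1: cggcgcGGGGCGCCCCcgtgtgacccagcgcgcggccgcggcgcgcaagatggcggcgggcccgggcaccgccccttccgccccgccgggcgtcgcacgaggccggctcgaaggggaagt
The TAB3 stretch lies at chrX:30889255-30889374 on the minus strand, with a GC box in capitals.
TAB3: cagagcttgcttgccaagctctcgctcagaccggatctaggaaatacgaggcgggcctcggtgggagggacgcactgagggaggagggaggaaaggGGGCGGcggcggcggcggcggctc
The CHUK stretch lies at chr10:100229597-100229716 on the minus strand, with an ETS-type match in capitals.
CHUK: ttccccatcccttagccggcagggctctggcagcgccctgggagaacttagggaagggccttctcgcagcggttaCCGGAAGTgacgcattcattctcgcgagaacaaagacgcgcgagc
The MAP3K7 stretch lies at chr6:90587073-90587192 on the minus strand, also with its ETS-type match in capitals.
MAP3K7: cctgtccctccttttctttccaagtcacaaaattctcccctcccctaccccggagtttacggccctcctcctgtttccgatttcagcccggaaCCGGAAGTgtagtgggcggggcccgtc

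Array medians of signal lay between 99.5 and 106.6, and log2 signal correlated across probesets at r = 0.967 to 0.98 within a group, at 0.962 to 0.981 between arrays that differed in TNFα only, and at 0.933 to 0.959 between arrays that differed in FGF19. The NFκB target genes CCL20 and NFKBIA rose 27.5-fold and 3-fold with TNFα. Of 3 genes that FGF signals commonly raise, SPRY4 rose 1.47-fold with FGF19 relative to Mock. DUSP6 read higher (geometric means 258.9 in Mock and 299.1 with FGF19) and EGR1 read lower (293.5 and 233). Neither of these passed the test (limma, adjusted p = 0.115 and 0.0572). With TNFα alone the geometric means were 217.8 for SPRY4 (55.7 in Mock), 459.9 for DUSP6 and 343.3 for EGR1. The epithelial markers KRT8, KRT18, EPCAM and CDH1 were well above the 20th percentile of every array (30.7 to 36.6), and the summed signal of the leukocyte, endothelial and fibroblast markers PTPRC, PECAM1, COL1A2 and DCN was 153.9 to 173 on all arrays. PTPRC and DCN lay below that percentile on all 8 arrays, and none of the marker signals was 0. Relative to Mock, FGF19 gave 1 lower (KRT8, 2.07-fold) and none higher of the 4 epithelial markers, and averaged over TNFα 1 lower (KRT8) and 1 higher (CDH1, 1.22-fold). The summed epithelial signal, at the brightest probesets, was 5905 to 6381 in the FGF19 arrays against 7832 to 8135 in Mock. Second probesets of KRT18 and EPCAM differed from Mock by -0.2 and 0.0858 on the log2 scale with FGF19. Neither was called (limma adjusted p = 0.135 and 0.628). For EPCAM the brightest probeset read the other way (geometric means 1471 in Mock and 1347 with FGF19). Of the 4 other markers, none was called at its brightest probeset with FGF19 relative to Mock, but a second PECAM1 probeset was 1.55-fold higher (limma adjusted p = 0.047), and PTPRC was 1.36-fold higher averaged over TNFα (0.0446). The part of these shifts in the differences below was not tested. From bulk RNA, fewer cells expressing a gene and less of its RNA per cell cannot be told apart.

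Signals below are linear PLIER values, in the order replicate 1 and replicate 2, and a difference is that of the group means of log2 signal with its standard error (SE). Differences were called at an adjusted p under 0.05 in a limma model fitted to all 33297 probesets and all 8 arrays. Probesets differ in how brightly they report their RNA, so no level is set against that of another gene.

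Among the 9 members, IKBKE was the 1 gene called with TNFα, and it differed in the opposite direction with FGF19. Its signal was 229 and 243 on the Mock arrays, 130 and 156 on the FGF19 arrays, 479 and 523 on the TNFα arrays, and 303 and 277 on the FGF19 + TNFα arrays. The 2 TNFα arrays were the highest and the 2 FGF19 arrays the lowest, and no group overlapped another. TNFα raised IKBKE 2.12-fold relative to Mock (log2 difference 1.08, SE 0.12, limma adjusted p = 0.0154) and 2.03-fold when FGF19 was present (log2 difference 1.02, SE 0.12, adjusted p = 0.0446). FGF19 lowered it 1.65-fold relative to Mock (adjusted p = 0.00688) and 1.73-fold relative to TNFα (adjusted p = 0.00604). The level with FGF19 + TNFα thus stood between those of Mock and TNFα, and its difference from Mock was not tested.

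For IKBKE the interaction, which asks whether FGF19 altered the log2 response to TNFα, was -0.06 (SE 0.169, 95% interval -0.48 to 0.35, limma adjusted p = 0.994). With only 2 arrays on each side, the TNFα call against Mock was lost without either Mock array or either TNFα array (limma adjusted p = 0.0671 to 0.138), without moderation of the variances (0.0767) and with only the groups compared (0.0631). The call within FGF19-treated cells was lost without any single array (0.0762 to 0.266), with a replicate block (0.0937), without moderation (0.186) and with only the groups compared (0.412). Averaged over FGF19, with 4 arrays on each side, IKBKE was the 1 member called, where 1.47% of all probesets were called (1.31% higher and 0.162% lower). That difference was 2.07-fold (log2 difference 1.05, SE 0.0847, limma adjusted p = 0.00353) and remained called under every alternative. An antisense transcript, IKBKE-AS1, overlaps the locus and has its own probeset, with signals of 45.5 and 40.2 on the Mock arrays, 67.9 and 44.3 on the FGF19 arrays, 43.6 and 51.3 on the TNFα arrays, and 74.1 and 63.4 on the FGF19 + TNFα arrays. Its groups overlapped, and it was called in none of the comparisons.

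**Figure D1:**
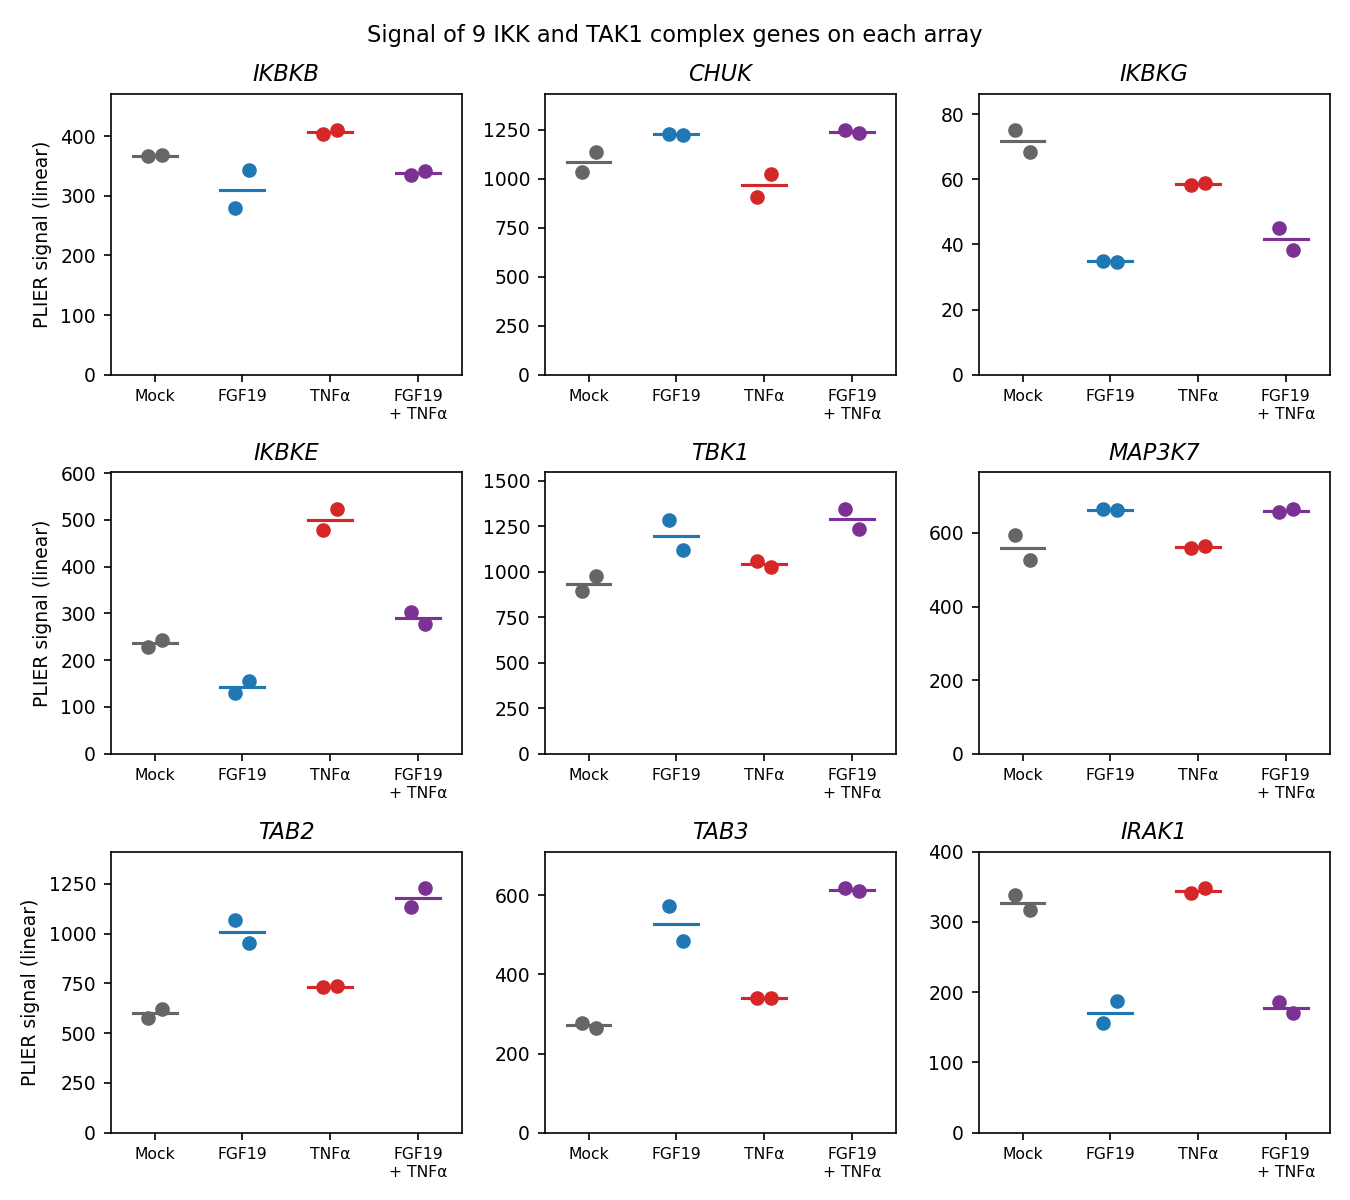
Linear PLIER signal (y axis, from 0, scaled for each gene) of the 9 genes on each of the 8 arrays, by treatment (x axis); points are arrays and lines are geometric means of the 2 arrays of a group. IKBKE is highest in the 2 TNFα arrays, TAB2 and TAB3 are higher and IRAK1 lower in all 4 arrays with FGF19 than in the 4 without, and the IKBKB, CHUK, TBK1 and MAP3K7 groups lie closer together.

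The other IKK-related kinase gene, TBK1, followed a different course. Its signal was 892 and 977 on the Mock arrays, 1282 and 1122 on the FGF19 arrays, 1060 and 1028 on the TNFα arrays, and 1344 and 1234 on the FGF19 + TNFα arrays. All 4 arrays with FGF19 lay above the 4 without. The FGF19 difference was 1.28-fold higher relative to Mock (log2 difference 0.36, SE 0.107, limma adjusted p = 0.0452), and 0.30 on the log2 scale relative to TNFα, which was not called (adjusted p = 0.0749). The call against Mock was lost under quantile normalization (adjusted p = 0.0544), with a replicate block (0.0574), without moderation of the variances (0.0636), with only the groups compared (0.117) and in every fit without 1 array except that without FGF19 replicate 2 (0.065 to 0.2), and the value averaged over TNFα, 0.33 (SE 0.0754, limma adjusted p = 0.013), was called throughout. The TNFα difference of TBK1 from Mock, 0.16, did not pass the test (adjusted p = 0.579).

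Within each array, the log2 signal of TBK1 minus that of IKBKE was 0.98 to 2.01 without FGF19 and 2.15 to 3.30 with it, a mean shift of 1.09. That measure removes any factor common to an array, and only its shift between arrays can be read.

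The catalytic IKK genes differed little between groups. IKBKB signal was 366 and 368 on the Mock arrays, 280 and 343 on the FGF19 arrays, 404 and 410 on the TNFα arrays, and 335 and 342 on the FGF19 + TNFα arrays. All 4 arrays with FGF19 were below the 4 without, although the FGF19 arrays differed more from each other than replicate 2 did from Mock. Neither the FGF19 difference from Mock (log2 difference -0.24, SE 0.112, limma adjusted p = 0.149) nor that from TNFα (-0.27, adjusted p = 0.118) was called, and the averaged value was 1.19-fold lower (-0.26, SE 0.0789, adjusted p = 0.0389). This last call was lost without any of the 6 arrays outside the FGF19 group (limma adjusted p = 0.0874 to 0.1) and without moderation of the variances (0.0589). Leaving out FGF19 replicate 2 instead brought the difference from Mock to -0.39 (limma adjusted p = 0.026).

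CHUK differed in the other direction. Its signal was 1036 and 1138 on the Mock arrays, 1228 and 1226 on the FGF19 arrays, 910 and 1026 on the TNFα arrays, and 1249 and 1234 on the FGF19 + TNFα arrays. Every array with FGF19 was above every array without it, and the Mock and TNFα arrays nearly met, at 1036 and 1026. With FGF19 the difference was 0.18 relative to Mock (SE 0.0974, limma adjusted p = 0.22) and 1.28-fold higher relative to TNFα (0.36, SE 0.0974, adjusted p = 0.0343). The latter call was lost under quantile normalization (adjusted p = 0.0512), with only the groups compared (0.0664) and without any of the 6 arrays outside the FGF19 group (0.053 to 0.168). The averaged value, 1.2-fold higher (0.27, SE 0.0689, limma adjusted p = 0.0204), was lost without Mock replicate 1, TNFα replicate 1 or either FGF19 + TNFα array (0.0561 to 0.0707). The within-array difference of CHUK minus IKBKB was 1.17 to 1.63 without FGF19 and 1.84 to 2.13 with it, so the catalytic pair shifted apart by 0.52 on the log2 scale.

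IKBKG, the gene of the NEMO scaffold, was dim. Its signal was 75.1 and 68.4 on the Mock arrays, 35.1 and 34.5 on the FGF19 arrays, 58.2 and 58.8 on the TNFα arrays, and 45.1 and 38.3 on the FGF19 + TNFα arrays. All 4 arrays with FGF19 were below the 4 without, the 2 FGF19 arrays lay below the 20th percentile of their own signals, and no group overlapped another. FGF19 lowered IKBKG 2.06-fold relative to Mock (log2 difference -1.04, SE 0.108, limma adjusted p = 0.00283) and 1.41-fold relative to TNFα (-0.49, SE 0.108, adjusted p = 0.018). The second call was lost without either TNFα array or without FGF19 + TNFα replicate 2 (adjusted p = 0.0744 to 0.0862).

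TNFα arrays read lower than Mock for IKBKG, and FGF19 + TNFα arrays higher than FGF19. The interaction of 0.55 (SE 0.153) had an unadjusted p of 0.0107 in limma and an adjusted p of 0.914, so it was not called. A near-identical pseudogene copy, IKBKGP1, shares sequence with IKBKG, and the signal could come from either.

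TAK1 itself, encoded by MAP3K7, was among the steadiest of the genes. Its signal was 595 and 526 on the Mock arrays, 665 and 662 on the FGF19 arrays, 560 and 566 on the TNFα arrays, and 657 and 664 on the FGF19 + TNFα arrays. The 4 arrays with FGF19 were tightly grouped above the 4 without, and the 2 Mock arrays enclosed both TNFα arrays. With FGF19, MAP3K7 differed by 0.24 relative to Mock (SE 0.0902, limma adjusted p = 0.0872) and by 0.23 relative to TNFα (adjusted p = 0.0988), neither of them called. The averaged difference, 1.18-fold higher (0.24, SE 0.0638, limma adjusted p = 0.024), was lost without Mock replicate 2 or any array given TNFα (0.0608 to 0.0753). The TNFα difference of MAP3K7 from Mock was 0.01 (95% interval -0.21 to 0.23).

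The partners of TAK1 moved further. TAB2, one of the proteins that tether TAK1 to ubiquitin chains, had signals of 577 and 622 on the Mock arrays, 1070 and 953 on the FGF19 arrays, 732 and 735 on the TNFα arrays, and 1132 and 1228 on the FGF19 + TNFα arrays. The lowest array with FGF19 was above the highest without. FGF19 raised TAB2 1.68-fold relative to Mock (log2 difference 0.75, SE 0.0992, limma adjusted p = 0.00383) and 1.61-fold relative to TNFα (0.68, SE 0.0992, adjusted p = 0.00539).

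TAB3, the close relative of TAB2 in sequence and role, had signals of 278 and 264 on the Mock arrays, 572 and 484 on the FGF19 arrays, 340 and 339 on the TNFα arrays, and 617 and 609 on the FGF19 + TNFα arrays. Again the arrays with and without FGF19 were fully apart. TAB3 rose 1.94-fold relative to Mock (log2 difference 0.96, SE 0.103, limma adjusted p = 0.00287) and 1.8-fold relative to TNFα (0.85, SE 0.103, adjusted p = 0.00383). Both TNFα arrays also read above both Mock arrays for TAB2 and TAB3. Those TNFα differences, 0.29 and 0.33 on the log2 scale relative to Mock, were not called (limma adjusted p = 0.319 and 0.284). The within-array difference of TAB3 minus TAB2 was -1.24 to -1.05 without FGF19 and -1.01 to -0.87 with it, a shift of 0.19.

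The probeset that names both TAB1, an activator subunit of TAK1, and LOC100506472 had signals of 135 and 138 on the Mock arrays, 85.0 and 104 on the FGF19 arrays, 120 and 109 on the TNFα arrays, and 90.0 and 85.3 on the FGF19 + TNFα arrays. Its 4 arrays with FGF19 were below the 4 without. The FGF19 difference was 1.45-fold lower relative to Mock (log2 difference -0.54, SE 0.121, limma adjusted p = 0.0181), and -0.38 relative to TNFα was not called (adjusted p = 0.0547). Which of the named transcripts it reports cannot be told apart.

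IRAK1, the receptor-proximal kinase, showed the largest averaged decrease among the 9 genes. Its signal was 338 and 316 on the Mock arrays, 156 and 187 on the FGF19 arrays, 341 and 348 on the TNFα arrays, and 186 and 171 on the FGF19 + TNFα arrays. The FGF19 arrays, with or without TNFα, formed a low set, and Mock and TNFα a high one. FGF19 lowered IRAK1 1.91-fold relative to Mock (log2 difference -0.94, SE 0.115, limma adjusted p = 0.00335) and 1.94-fold relative to TNFα (-0.95, SE 0.115, adjusted p = 0.00382). The TNFα difference from Mock was 0.07 (95% interval -0.20 to 0.35). Within an array, TAB3 minus IRAK1 was -0.28 to 0 without FGF19 and 1.37 to 1.87 with it, a shift of 1.85. That shift was the widest of the 4 pairs examined, which follows from pairing the members with the largest averaged rise and fall.

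**Figure D2:**
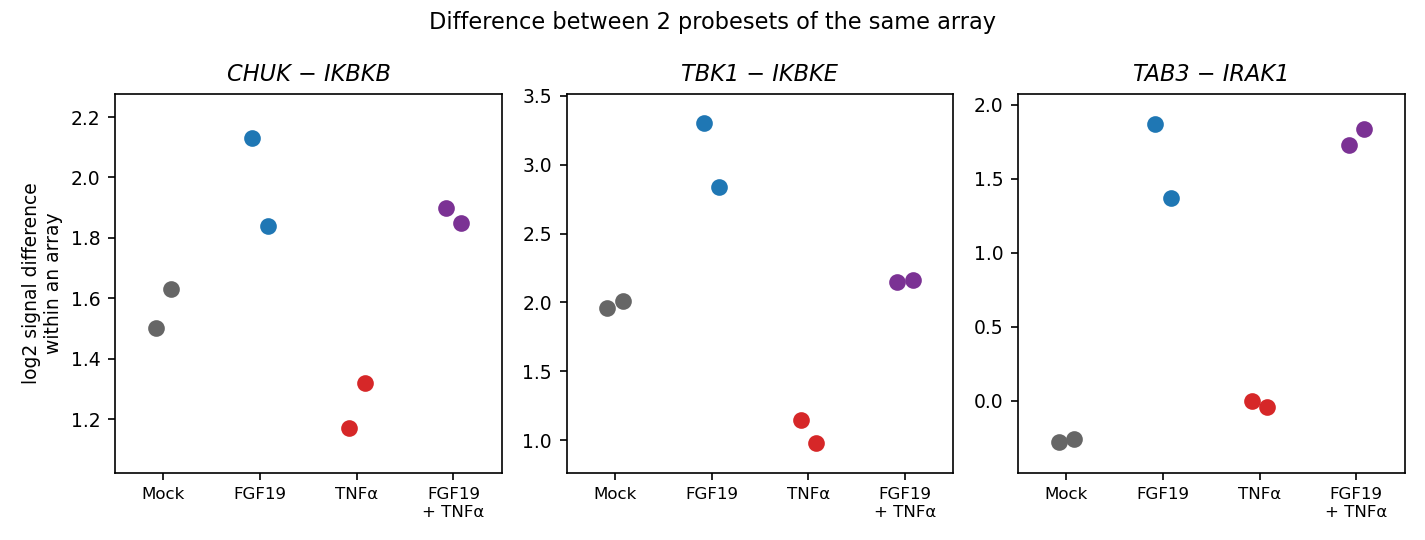
Log2 signal of 1 gene minus that of another on the same array (y axis, not starting at 0) by treatment (x axis), for CHUK and IKBKB, TBK1 and IKBKE, and TAB3 and IRAK1; each point is 1 array. In every panel the 4 arrays with FGF19 lie above the 4 without, and only such shifts, not the heights, can be read. Each panel subtracts a gene lower with FGF19 from a gene higher with it, so that direction follows from the choice of pairs.

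Set side by side, the comparisons called few members with TNFα and more with FGF19. With TNFα relative to Mock, 1 of 9 was called, higher, where 1.06% of all probesets were called (0.967% higher and 0.0961% lower). For FGF19 + TNFα relative to FGF19, 1 of 9 was called, again IKBKE, against 0.282% of all probesets (0.279% higher and 0.003% lower). With FGF19 relative to Mock, 3 were higher (TBK1, TAB2 and TAB3) and 3 lower (IKBKG, IKBKE and IRAK1), where 32.2% of all probesets were called (18.2% higher and 14.1% lower). Relative to TNFα, FGF19 gave 3 higher (CHUK, TAB2 and TAB3) and the same 3 lower, where 32.4% of all probesets were called (19.4% higher and 12.9% lower).

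All 9 were called for FGF19 averaged over TNFα, 5 higher and 4 lower, in a comparison that called 46.8% of all probesets (28% higher and 18.9% lower) and 57% of those left after the dimmest 20% were dropped. The median size of that difference, without its sign, was 0.719 for the members and 0.292 for all probesets. With its sign, the median was 0.238 for the members and 0.0958 for all probesets. Without regard to size, 8 of 9 members had 4 arrays with FGF19 that did not overlap the 4 without, as did 43.9% of all probesets. Of the 8, 5 were higher and 3 lower, against 25.5% and 18.4% of all probesets. IKBKE was the exception, and was the 1 member whose TNFα arrays did not overlap the rest, as for 3.27% of all probesets. The published analysis set an adjusted p limit of 0.015, but in a one-way ANOVA of fewer probesets, so passing here is not passing there. Differences among the 4 groups passed the limma F test at that limit for TAB3, IKBKE, IRAK1, TAB2 and IKBKG. These were 5 of 9 members, where 20.9% of all probesets passed. Fewer members passed without Mock replicate 1 or Mock replicate 2, in fits that left 1 Mock array. No share of all probesets was taken for the F test in any fit without 1 array. Whether that drop goes beyond a general loss of calls was therefore not tested.

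The FGF19 difference had the same sign without and with TNFα, a comparison that shares no arrays, for 9 of 9 members and for 81.1% of all probesets. IKBKG, IKBKE, TAB2, TAB3 and IRAK1, 5 in all (55.6%), were called on both backgrounds, as were 24.8% of all probesets. No interaction was called for any member, and none of the 33297 probesets was called (0%). In limma 1715 of them (5.15%) had an unadjusted p under 0.05, and with a trended robust prior 4 of them (0.012%) were called. A share over all probesets, from 2 arrays per group, cannot show whether a small set of genes has an interaction.

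**Figure D3:**
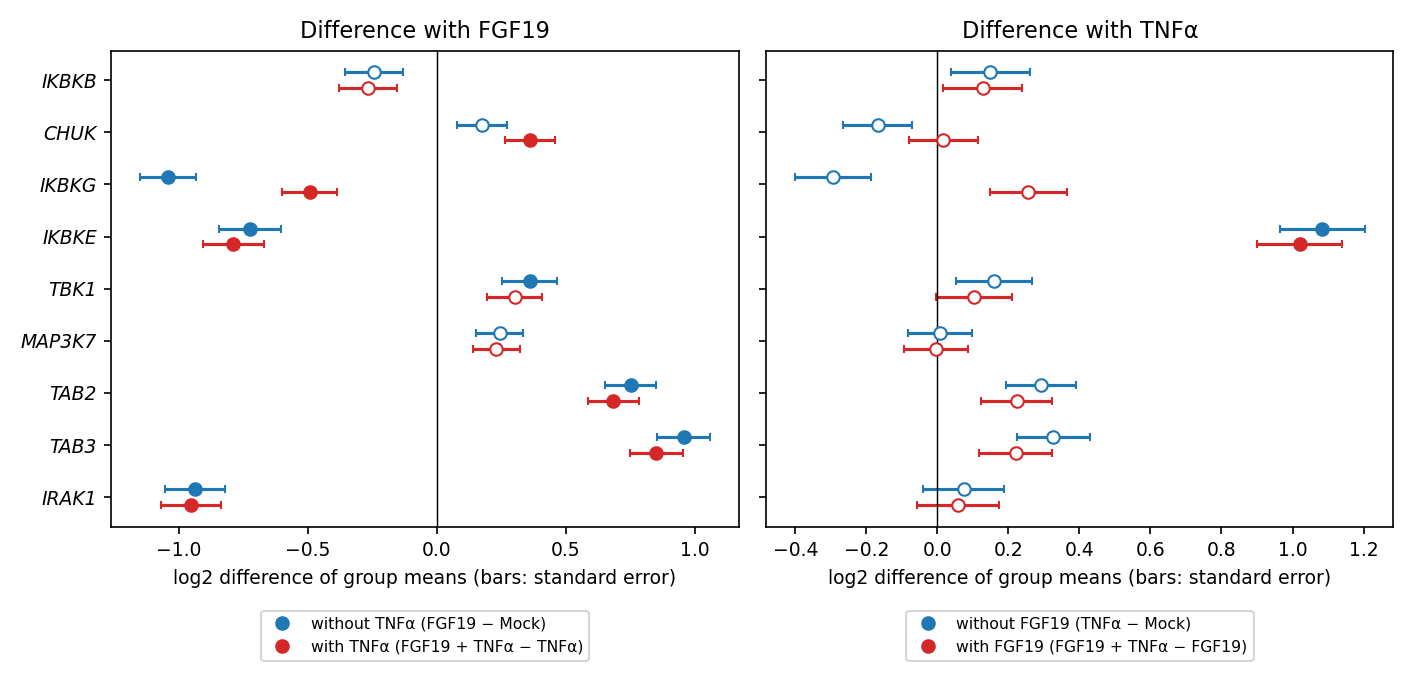
Log2 differences of group means for the 9 genes (x axis) with FGF19 (left) and with TNFα (right), on the background without (blue) and with (red) the other agent; bars are SE and filled points are called at a limma adjusted p under 0.05. On the left the blue and red points of a gene lie on the same side of 0, with TAB3 at 0.96 and 0.85 and IRAK1 at -0.94 and -0.95, and on the right IKBKE stands alone at 1.08 and 1.02.

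The surrounding pathway was read from 72 genes in 9 roles, of which 63 had a probeset with a single symbol. RIPK1, TRAF2, BIRC3, IRAK4, UBE2D2, UBE2D3, UBE2L3, MAP2K7 and MAPK14 were not analysed here. With TNFα relative to Mock, where 1.06% of all probesets were called, 12 of the 63 were higher and none lower, with a median log2 difference of 0.0962 against -0.0353 for all probesets. With FGF19 relative to Mock 19 were higher and 15 lower, against 32.2% of all probesets called (18.2% higher and 14.1% lower). The median log2 difference was 0.00976 for the 63 and 0.0806 for all probesets. Relative to TNFα 18 were higher and 19 lower, against 32.4% (19.4% and 12.9%), with medians of -0.0448 and 0.104. FGF19 + TNFα relative to FGF19 gave 8 higher and none lower, against 0.282%. Averaged over TNFα, 22 were higher and 21 lower with FGF19, against 46.8% (28% and 18.9%), and the median size was 0.348 for the 63 and 0.292 for all probesets. The same shares stand beside the counts of each role that follow. By sign, 55 of the 63 (87.3%) shifted the same way with FGF19 on both backgrounds, against 81.1% of all probesets.

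At the TNF receptor, 1 of 5 measured genes rose with TNFα, BIRC2, which encodes the ubiquitin ligase cIAP1 (1.69-fold). Relative to Mock, 2 of 5 fell with FGF19, the adaptor gene TRADD (1.72-fold) and the receptor gene TNFRSF1A (1.22-fold). Relative to TNFα, 1 rose, the adaptor gene TRAF5 (1.33-fold), and 3 fell, among them BIRC2 (1.27-fold).

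Of 8 genes for Toll and IL1 receptor adaptors and kinases, 2 rose with TNFα, the IRAK relatives IRAK2 (2.89-fold) and IRAK3 (1.7-fold). FGF19 relative to Mock gave 2 that rose, TRAF6, the ubiquitin ligase downstream of IRAK1 (1.89-fold), and IRAK3, a kinase-inactive inhibitor (1.38-fold), and none fell. Relative to TNFα, 2 rose, led by TRAF6 (1.67-fold), and IRAK2 fell 1.61-fold.

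None of the 5 genes for ubiquitin chain assembly was called with TNFα. The 3 LUBAC genes, RNF31, RBCK1 and SHARPIN, fell with FGF19 on both backgrounds, RNF31 1.49-fold relative to Mock and SHARPIN 1.39-fold relative to TNFα. A second RNF31 probeset was not called (limma adjusted p = 0.14 relative to Mock and 0.815 relative to TNFα). Its log2 difference relative to TNFα was -0.04, so the RNF31 decrease on that background rests on the brightest probeset. UBE2V1, a partner of the enzyme that builds K63-linked chains, rose 1.83-fold and 2.02-fold.

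Among 9 deubiquitinase and ubiquitin-binding inhibitor genes, 3 rose with TNFα, with the smallest p for TNFAIP3 (A20, 10.5-fold) and the A20-binding inhibitor gene TNIP1 (1.84-fold). With FGF19 relative to Mock, 3 rose and 2 fell. TNFAIP3 rose 1.52-fold, and TNIP2, encoding another A20-binding protein, fell 2.27-fold. Relative to TNFα 1 rose and 2 fell, TNIP2 by 2.21-fold and the deubiquitinase gene OTUD7B by 1.38-fold.

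No gene of the 7 adaptors and substrates of TBK1 and IKKε was called with TNFα. Relative to Mock, FGF19 raised 2 and lowered 3, including the transcription factor gene IRF3 (2.13-fold lower) and the adaptor gene STING1 (1.64-fold lower). Relative to TNFα 3 rose and 3 fell, with IRF3 2-fold and STING1 1.77-fold lower.

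Of 10 IKK-activating kinases, chaperones and binding partners, MAP3K8, the kinase TPL2, was the 1 called with TNFα (3.2-fold higher). In the FGF19 arrays 3 rose and 1 fell relative to Mock. The co-chaperone gene CDC37, whose product loads the IKK kinases onto HSP90, fell 2.36-fold, and ERC1, encoding a regulatory IKK subunit, rose 1.72-fold. Relative to TNFα, CDC37 fell 2.01-fold and the kinase gene MAP3K1 rose 1.66-fold.

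The 5 phosphatase genes of IKK or TAK1 held the largest decrease with FGF19 in the 63, that of PPP4C, a catalytic subunit (2.76-fold relative to Mock and 2.75-fold relative to TNFα). PPM1A, PPM1B and PPP6C rose on both backgrounds, PPP6C 1.55-fold and 1.48-fold. None of the 5 was called with TNFα.

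IKK substrates were the role with the most calls for TNFα, 5 of 8, with the smallest p for NFKB2, which encodes the p100 precursor (2.41-fold), and NFKBIA, which encodes IκBα (3-fold). For FGF19 against Mock, 2 rose and 3 fell. REL rose 1.78-fold, and the inhibitor gene NFKBIE fell 1.7-fold. Relative to TNFα, 2 rose and 4 fell, NFKBIE by 2.01-fold and the inhibitor gene NFKBIB by 1.73-fold.

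Of 6 MAP kinase kinase and kinase genes below TAK1, none was called with TNFα relative to Mock. FGF19 against Mock gave 3 higher and none lower, the JNK1 gene MAPK8 by 1.34-fold and the Nemo-like kinase gene NLK by 1.42-fold. Relative to TNFα 3 rose and 1 fell, with MAPK8 1.38-fold and its activating kinase gene MAP2K4 1.4-fold higher.

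**Figure D4:**
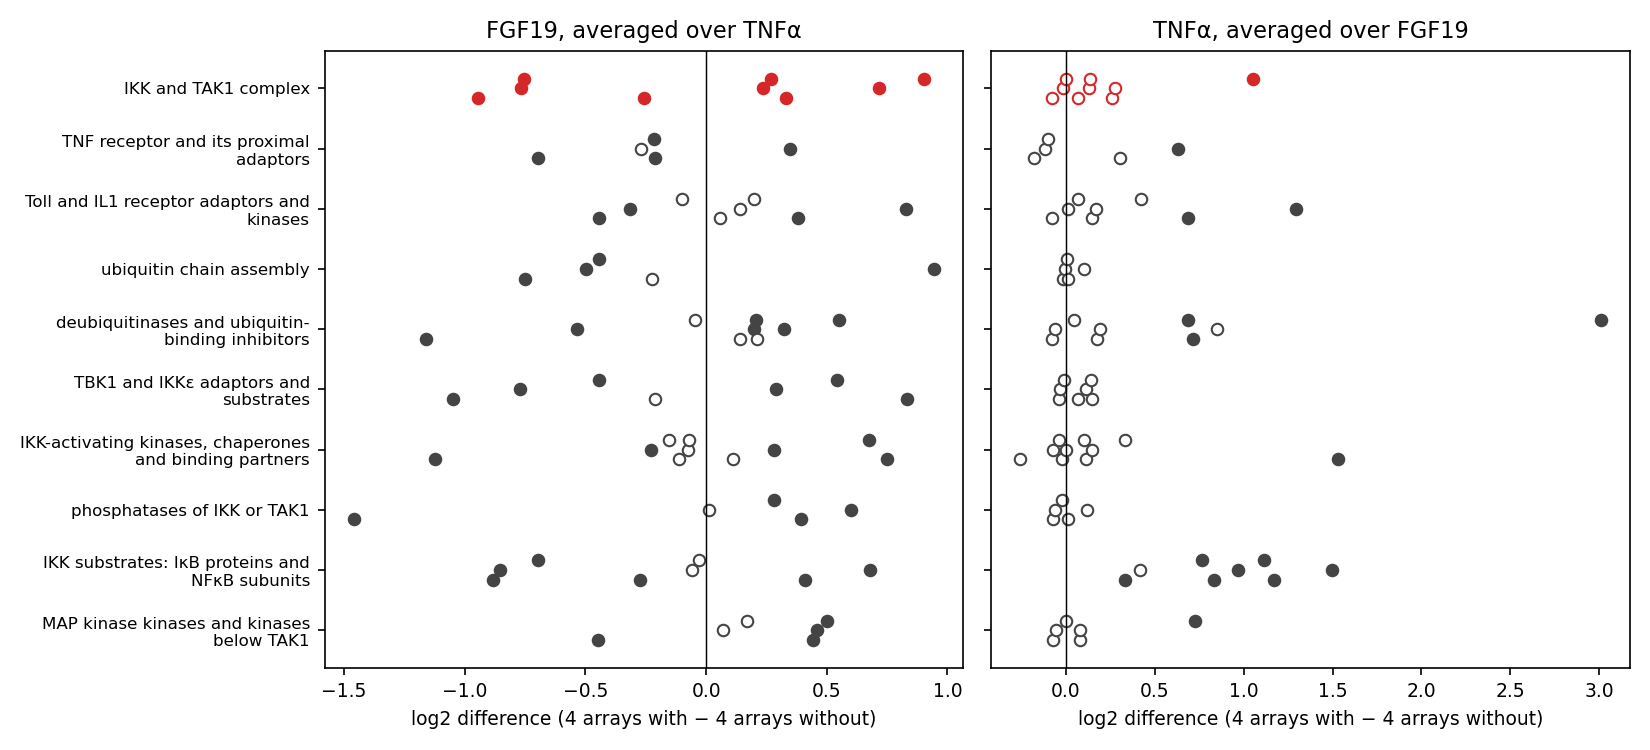
Log2 differences (x axis) of the 9 IKK and TAK1 complex genes (red) and the 63 measured pathway genes by role (dark grey), for FGF19 averaged over TNFα (left) and TNFα averaged over FGF19 (right), with 4 arrays on each side; each point is 1 gene and filled points are called at a limma adjusted p under 0.05. FGF19 calls lie on both sides of 0 (5 higher and 4 lower in the complex, 22 and 21 in the pathway), whereas every TNFα call is above 0 (1 and 15).

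The genes whose log2 signal ran closest to that of a member over the 8 arrays were found among 17193 probesets with a single symbol outside the dimmest 20%. Closest to IKBKE were MAFF, a small MAF transcription factor gene (Pearson r = 0.996), WTAP, encoding a subunit of the RNA methyltransferase complex (0.995), and IL4R, the interleukin 4 receptor gene (0.994). MAFF, WTAP and IL4R rose with TNFα relative to Mock by 1.26, 0.44 and 0.83 on the log2 scale. They were 0.87, 0.26 and 0.56 lower in the arrays with FGF19. Their choice by correlation with IKBKE entails directions like those of IKBKE. Closest to IRAK1 were the progranulin gene GRN, the stress-response factor gene ATF4 and the lipase gene ABHD16A (each r = 0.999), and closest to TAB3 were ADAR, an RNA-editing enzyme gene (0.9985), RB1CC1, an autophagy gene (0.998), and ZBTB38 (0.998). These correlations rest on 8 arrays in 4 groups, which differ mainly in FGF19, and describe these arrays alone.

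Promoter windows covered 250 bases before and 50 after each annotated start, 300 in all, and 35116 such windows gave the background. The motifs, on both strands, were chosen after the sequences had been seen: an ETS-type core CCGGAAGT, found in 4.14% of all windows, an AP1 motif TGANTCA (7.71%), a CRE TGACGTCA (1.85%), a GC box GGGCGG (45%) and the κB motif (11.3%), whose matches can overlap a GC box. A match says only that the letters are there. The IKBKE window had 55% GC and 5 CpG dinucleotides, against medians of 58.7% and 14 for all windows, and held none of the 5 motifs. The IRAK1 window had 83% GC and 52 CpG dinucleotides, above the 90th percentiles of 74.7% and 37. It held the κB-type match shown above, from position -114 to -105, 4 GC boxes and an AP1 match across the start. The κB motif was also matched in 1 of the 2 TAB2 windows, at positions -102 to -93, -101 to -92 and 13 to 22. The first 2 of these overlap, on opposite strands. The AP1 motif was matched in 2 of the 4 IKBKG windows.

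The TAB3 window had 70.3% GC and 3 GC boxes. An ETS-type match lay near the start in CHUK (position -45 to -38) and MAP3K7 (-27 to -20) and across it in TBK1, and 1 of 4 IKBKG windows held one. The first 3 of these genes were among those higher with FGF19 and IKBKG among those lower. Across 14239 measured genes with a window, 30.5% of the 1018 genes with an ETS-type match were called higher with FGF19 averaged over TNFα and 40.2% lower, against 30.5% and 21.7% of the 13221 without. Promoter GC content and the same difference correlated at a Spearman rho of -0.143 across these genes, which are not independent replicates. Among the 8 members with a window and a probeset of their own, the richest window in GC (IRAK1) and the poorest (IKBKE) both belonged to genes lower with FGF19.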

How the data were processed

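DU145 RNA was measured on 8 arrays, 2 in each of 4 groups taken from the sample labels. The authors deposited linear signal intensity for 33297 probesets, made per the labels with Affymetrix Expression Console and PLIER, with versions and normalization not given in the sources used here. No molecule counts underlie array signal, so precision is limited by the number of arrays. Log2 values were taken after 240 zeros had been raised to 0.01, with no further scaling. All probesets and arrays were fitted with limma 3.58.1 in R 4.3.3 (lmFit, contrasts.fit, eBayes), with Benjamini-Hochberg adjustment over all probesets. P-values measure the spread between 2 arrays per group. Symbols come from the platform annotation, updated by Entrez identifier to RefSeq for 19429 of 19460 probesets with 1 symbol. A gene with several probesets was read at its brightest. Promoter sequences are from RefSeq on GRCh38.p14.

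The members, lists and tests were chosen with earlier results of these data known. Named were every member, up to 2 called pathway genes with the smallest p per role in each of 3 comparisons, the 3 nearest patterns of IKBKE, IRAK1 and TAB3, and fixed checks and markers. Genes of the LUBAC and phosphatase roles beyond that rule, and the neighbours IKBKE-AS1 and IKBKGP1, were named after their values were seen. The steps were tested on simulated data. The alternatives tried were cyclic loess or quantile normalization, a pseudocount of 16, the dimmest 20% left out, no moderation, a trended robust prior, only the groups compared, a replicate block and each array left out.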

Additional observations from a re-analysis of the deposited data

How the results depend on the processing

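Of 24 called member differences, none changed sign under any alternative. IKBKE, TAB2, TAB3 and IRAK1 kept every call for FGF19 under all of them. Without moderation of the variances, 0 members were called for TNFα against Mock, where 0.58% of all probesets were called. For FGF19 + TNFα against FGF19, 0 members and 5 pathway genes were called, against 0.114% of all probesets. The F test without moderation called 3 members and 21 pathway genes, with no share of all probesets taken. With only the groups compared in the fit, 0 members and 7 pathway genes were called for TNFα against Mock (0.309% of all probesets). In that setting 19 pathway genes were called for FGF19 against Mock (21.3% of all probesets). It called 0 of either for FGF19 + TNFα against FGF19, where 0 of all 33297 probesets were called. Quantile normalization turned 3 uncalled TNFα values, MAP3K7 to -0.0014 against Mock and to -0.00781 averaged, and IKBKG to 0.00868 averaged. The causes were not tested. Signal near the 20th percentile limits the size given for IKBKG. No member had a second probeset with a single symbol, so that alternative was not run. Differences between replicates correlated between groups at -0.0197 to 0.195, highest between FGF19 and FGF19 + TNFα. Whether the replicate numbers pair the arrays cannot be told from these values. A replicate block gave 0 members and 5 pathway genes for FGF19 + TNFα against FGF19 (0.174% of all probesets called). It gave 5 members against 6 for FGF19 against Mock, where TBK1 lost its call (32.1% of all probesets called).

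Over the fits without 1 array, members called ranged from 0 to 1 for TNFα against Mock, 5 to 7 for FGF19 against Mock, 4 to 7 for FGF19 + TNFα against TNFα, 0 to 0 for FGF19 + TNFα against FGF19, 6 to 9 for averaged FGF19 and 1 to 5 for the F test. The share of all probesets called ran alongside, from 0.27 to 0.853%, 17.3 to 29.5%, 13.5 to 35%, 0.018 to 0.15% and 37.5 to 46.5% in the first 5 of these. Pathway genes called ranged from 6 to 14, 14 to 32, 15 to 36 and 1 to 4 in the same 4 comparisons, 33 to 43 for averaged FGF19, and 11 to 30 for the F test. The lowest came without either Mock array for FGF19 against Mock (14 and 20) and the F test (11 and 12), without TNFα replicate 1 or FGF19 + TNFα replicate 2 for FGF19 + TNFα against TNFα (15 each), and without any Mock or TNFα array for TNFα against Mock (6 to 7). Uncalled values that changed sign were, for MAP3K7, -0.07997 to 0.0972 with TNFα against Mock, -0.0122 to 0.0028 for FGF19 + TNFα against FGF19, and -0.0423 to 0.0463 with averaged TNFα, where IKBKG ran from -0.0778 to 0.0408. For FGF19 + TNFα against FGF19, IKBKB ran from -0.0174 to 0.273 and IRAK1 from -0.0738 to 0.191. Interactions ran from -0.167 to 0.123 for IKBKB, -0.195 to 0.0663 for IKBKE, -0.155 to 0.0385 for TBK1, -0.102 to 0.0753 for MAP3K7, -0.151 to 0.0149 for TAB2, -0.225 to 0.0143 for TAB3 and -0.148 to 0.117 for IRAK1.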
